A study of Solanum lycopersicum with 6 samples.

Results

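The 6 genes PME2.1, PE1, PG2, Cel1, Cel2 and exp18 encode enzymes and a loosening protein of the fruit cell wall, and each was read by 1 probe set of a tomato array in fruit of drought-stressed and control plants. They were chosen by their exact gene symbols in the platform annotation, as 6 of the 802 genes with a symbol, at a time when their drought and control values on these same arrays were already known. Their differences between the groups are therefore given as a description, with no test of their own.

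RNA came from mature green fruit of the dwarf tomato cultivar MicroTom, from a greenhouse kept at 25 °C during the day and 20 °C in the evening, picked 30 to 40 days after flowering. The drought group held 3 arrays from plants that received a liquid fertilizer, diluted 500-fold, once a week. The control group held 3 arrays from plants under normal conditions whose label gives the same dilution up to planting and no frequency. The labels thus leave unclear how the watering of the groups differed, and whether the fertilizer supply differed too. Both groups share the cultivar, the tissue and the greenhouse, and no label says whether replicate arrays stand for different plants, so their spread, and any p-value resting on it, may be technical only. Whole fruit mixes cell types, and fewer cells of a type cannot be told apart from less RNA per cell.

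The primary cell wall of a tomato fruit is a mesh of cellulose fibres tied by xyloglucan and embedded in pectin, and its disassembly softens the fruit as it ripens. Pectin methylesterases strip methyl groups from pectin, which opens the chain to polygalacturonases that cut it. Endo-1,4-beta-glucanases, often called cellulases, cut glucan chains, while expansins loosen the contacts between cellulose and xyloglucan without cutting either.

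On the scale of the deposited values, which were taken as log2, Cel1 was lower and exp18 was higher in drought fruit by about 0.11 each. PME2.1 was lower by 0.014. The differences of PE1, Cel2 and PG2 were at most 0.00041 in size, although PE1 and PG2 had all drought arrays below all control arrays. The arrays of the groups did not overlap for 4 genes lower in drought (PME2.1, PE1, PG2 and Cel1) and 1 gene higher (exp18), and they overlapped for Cel2. Over all 10101 tested probe sets, 14.3% were separated downward in this way and 20.5% upward. The limma test across all probe sets, with Benjamini-Hochberg adjustment at 0.05, called 1 of the 6 genes, PME2.1, against 0.762% of all probe sets. Without control replicate 3 it called PME2.1, PE1 and Cel1, 3 of the 6, against 5.41% of all probe sets, and after centring each array it called all 6, against 93.1%. Since the genes were chosen with this comparison known, nothing is read from these counts, nor from the ranks of the 6 genes by size given below.

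**Figure D1:**
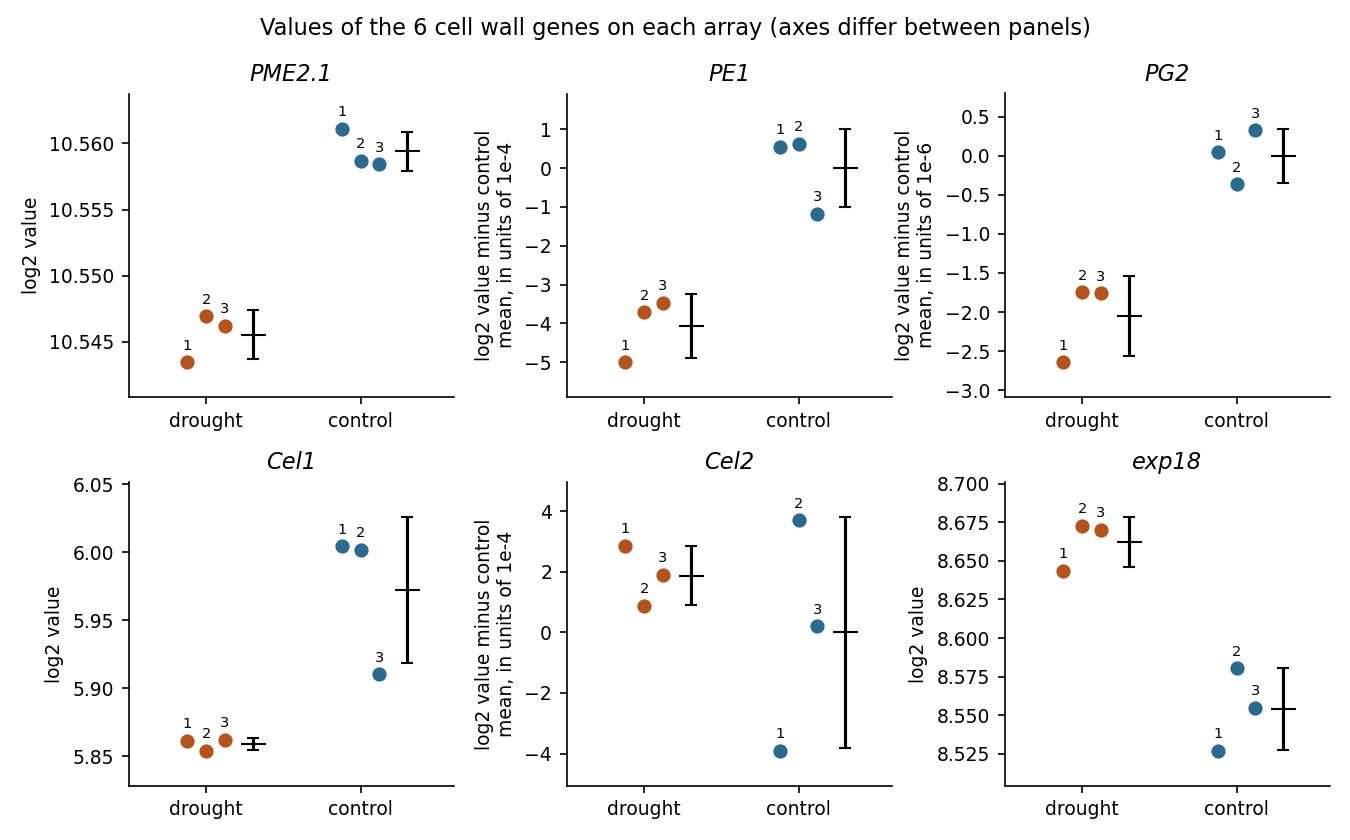
Values of the 6 genes on each array, in drought and control fruit, with replicate numbers beside the points and the mean and SD of each group (n = 3) to their right. The y axes differ between panels and give the log2 value, or for PE1, PG2 and Cel2 its distance from the control mean. For every gene but Cel2 the drought and control points do not overlap.

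Most of the table hardly moved between arrays, which bears on how these sizes read. The gap between the highest and the lowest of the 6 arrays was under 0.001 in 75.7% of the tested probe sets, with a median of 0.00013. It reached 0.00047 at most among 69 probe sets for bacterial and phage sequences, which read no tomato gene. PG2, with a range of 3.0e-06, lay inside what those probe sets showed, and 48 of the 69 had a range as large or larger. PE1 and Cel2 lay just above the highest of them, at 0.00056 and 0.00076. Both were below the median range, 0.00079, of 14 control probe sets for tomato actin, ef1a, GAPDH and ubiquitin. The widest of these 14 reached 0.0067. PME2.1 at 0.018, exp18 at 0.146 and Cel1 at 0.150 lay above the highest of both kinds of control. The summary behind such small ranges is unknown, so a difference here need not be the fold change of a transcript.

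**Figure D2:**
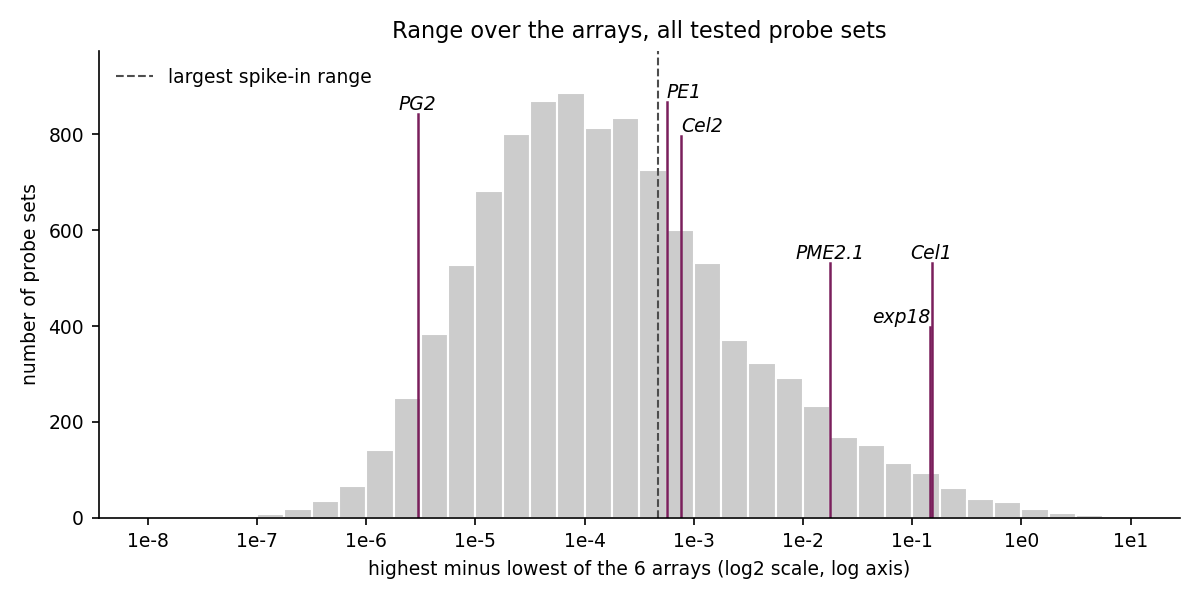
Histogram of the highest minus the lowest array for all 10101 tested probe sets, on a log axis, with the 6 genes as vertical lines and the largest range of a bacterial or phage probe set (0.00047) as a dashed line. PG2 lies left of the dashed line, PE1 and Cel2 just right of it, and PME2.1, exp18 and Cel1 further right.

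Control replicate 3 stood apart from the other controls and nearer to the drought arrays. Its Pearson's r across probe sets, which are not independent, was 0.9990 to 0.9992 with the drought arrays, against 0.9960 and 0.9970 with control replicates 1 and 2. The differences of the 6 genes, and the counts of calls, are therefore also given without it. Its place between the mean of control replicates 1 and 2 (0%) and the drought mean (100%) had a median of 75.3% over the 268 probe sets with a range over 0.1. Over the 135 of these whose groups did not overlap, the median was 49.7%.

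PME2.1 encodes a pectin methylesterase of the fruit. Its probe set read 10.543, 10.547 and 10.546 in drought replicates 1 to 3, against 10.561, 10.559 and 10.558 in control replicates 1 to 3. Every drought array lay below every control array, with a gap of 0.011 between the nearest of them. The means were 10.5456 ± 0.0018 in drought and 10.5594 ± 0.0015 in control (SD, n = 3 each). The difference of -0.014 ± 0.0013 (SE) corresponds to a linear change of -0.956% if the scale is log2, and it was 8.26 times the pooled SD. Control replicate 3 stayed with the other controls here, at 10.4% of the way to drought, and the difference without it was -0.014. By size, 536 probe sets (5.31%) differed more than PME2.1. Nothing is read from the limma call of PME2.1, a gene chosen with this comparison known. The call was lost after quantile normalization, with the replicate number as a block, and without any 1 of the arrays other than control replicate 3.

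PE1, also known as LePME1 and PME1.9, encodes another fruit pectin methylesterase. In RefSeq's gene table for assembly SLM_r2.1, PE1 and PME2.1 are next to each other on chromosome 7, with 0 genes between them. Whether the probe set of either gene also reads transcripts of the other was not tested. PE1 read 12.72146, 12.72158 and 12.72161 in drought, against 12.72201, 12.72202 and 12.72184 in control. Its drought arrays were all lower, and control replicate 3 was the lowest control, at 37.8% of the way to drought. The difference was -0.00041, between means of 12.72155 ± 0.000082 in drought and 12.72196 ± 0.00010 in control (SD, n = 3 each). Without control replicate 3 it was -0.00046. The neighbouring genes thus shared the direction and the separation of the arrays, with differences of -0.014 for PME2.1 and -0.00041 for PE1. The order of these sizes depended on the scaling, since after quantile normalization PME2.1 stood at -0.020 and PE1 at -0.025.

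PG2 encodes the polygalacturonase that accumulates in ripening tomato fruit and cuts demethylated pectin. Its values were 5.949686, 5.949687 and 5.949687 in drought, against 5.949689 in each control array. The drought arrays were lower, by a mean of 2.05e-06 over group SDs of 5.1e-07 in drought and 3.5e-07 in control (n = 3 each). This separation lay in the sixth decimal of the deposited values. After quantile normalization the PG2 difference was above 0, at 0.00018, and the gene belonged to the dimmest 30% of probe sets by mean value. Without control replicate 3 the difference was -1.9e-06.

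Cel1 and Cel2 encode endo-1,4-beta-glucanases, known in tomato from abscission zones and ripening fruit, and lie on chromosomes 8 and 9. Cel1 read 5.861, 5.854 and 5.862 in drought, against 6.005, 6.002 and 5.910 in control. The drought arrays were close together and all lower, while control replicate 3 lay between them and the other controls, at 64.5% of the way to drought. The means were 5.859 ± 0.0044 in drought and 5.972 ± 0.054 in control (SD, n = 3 each), and the difference was -0.11 ± 0.030 (SE), or a linear change of -7.54% if the scale is log2. Without control replicate 3 it was -0.14. By size, 148 of the tested probe sets (1.47%) differed more than Cel1, which also belonged to the dimmest 30% of probe sets.

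Cel2 showed no such separation. It read 7.53439, 7.53419 and 7.53429 in drought, against 7.53371, 7.53447 and 7.53412 in control. The control arrays held both the lowest and the highest value, and all drought arrays lay between them. The difference of 0.00019 was 0.675 of the pooled SD. It turned negative after quantile normalization (-0.0051) and without control replicate 1 (-7.8e-06). It was also negative (-0.0053) after every array was set to the same median, which shifts the differences of all probe sets alike. The difference was 0.00037 without control replicate 2 and 0.00020 without control replicate 3.

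The expansin gene exp18, on chromosome 6, is known in tomato from young, growing tissue such as the shoot meristem. Its probe set read 8.644, 8.673 and 8.670 in drought, against 8.527, 8.580 and 8.555 in control. All drought arrays lay above all control arrays, with a gap of 0.063 between the nearest. The means were 8.662 ± 0.016 in drought and 8.554 ± 0.027 in control (SD, n = 3 each). The difference was 0.11 ± 0.017 (SE), or a linear change of 7.78% if the scale is log2, and 4.90 times the pooled SD. Unlike Cel1, whose difference was of similar size, exp18 had control replicate 3 among the other controls, at 0.898% of the way to drought, and the difference without that array was 0.11. Larger differences were found in 152 of the tested probe sets.

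The shapes of the profiles were compared after each gene was set to a mean of 0 and an SD of 1 over the 6 arrays. The measure was the root mean square distance, which is 0 for equal shapes and 2 for mirror images. PME2.1 lay nearest to PE1 (0.251) and PG2 (0.257), and PE1 lay at 0.319 from Cel1. In control replicate 3 the standardised value was 1.24 for PG2, 0.84 for PME2.1, 0.40 for PE1 and -0.083 for Cel1. The distance of exp18 was 1.92 to 1.97 from the 4 genes lower in drought and 0.928 from Cel2. With 6 arrays, and with genes read on the same arrays, these distances only describe.

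**Figure D3:**
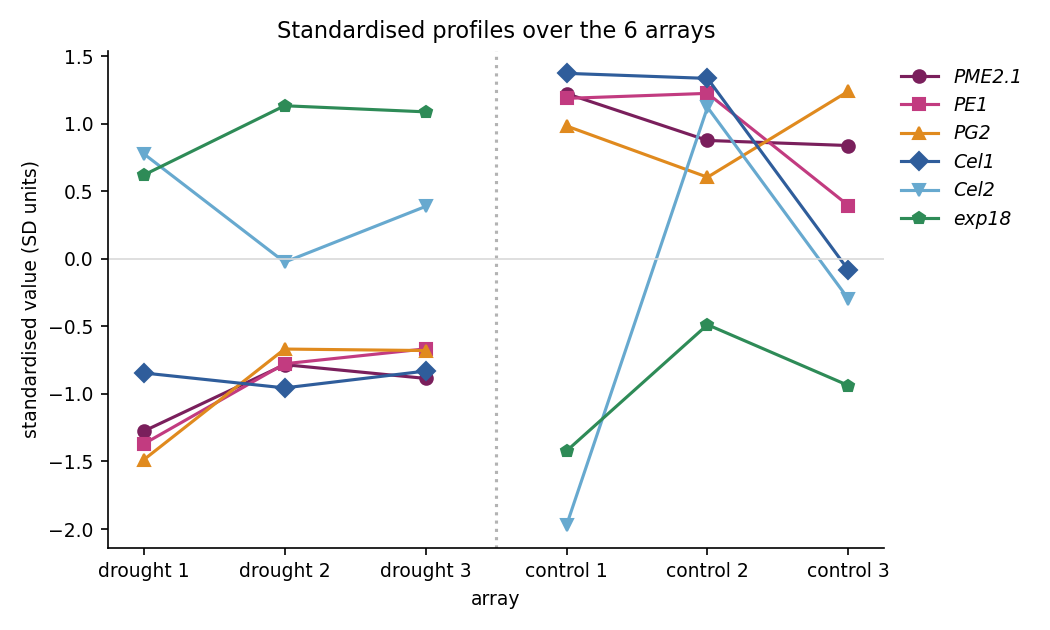
Standardised values (SD units) of the 6 genes over drought arrays 1 to 3 and control arrays 1 to 3, with 1 line per gene. PME2.1, PE1, PG2 and Cel1 are low in drought, exp18 is high, Cel2 spans its whole range within control, and control 3 is where Cel1 and PE1 drop below the other controls.

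Among the 801 other genes with a symbol, the shapes most like Cel1 were those of WRKY2, a WRKY transcription factor gene (distance 0.0955, difference -0.0018), LOC544158 (0.111, difference -0.32) and RAB1B, a small GTPase gene (0.140, difference -0.0030). The nearest to exp18 were Klc-I2I (0.0532, difference 0.0014), the transcription factor gene TCP3 (0.148, difference 0.031) and the beta-galactosidase gene TBG7 (0.177, difference 0.072). For PME2.1 they were LOC543787 (0.140), BL2 (0.185) and LOC606712 (0.229). PE1 was nearest to LOC544158 (0.217), GP1 (0.222) and the MADS-box gene TDR8 (0.236). PG2 was nearest to LOC543787 (0.238), PME2.1 itself (0.257) and the auxin response factor gene ARF3 (0.277). Cel2 had no neighbour closer than the expansin gene exp9 (0.277), followed by the homeobox gene KN1 (0.331) and LOC544060 (0.376). Genes of like shape thus differed in size by orders of magnitude, as LOC544158 and WRKY2 did beside Cel1.

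The other cell wall genes with a symbol or synonym on the array numbered 44, and 0 of them passed the limma test over all probe sets in either direction. At an unadjusted p under 0.05 there were 14 (31.8%), against 2524 (25.0%) of all tested probe sets. Without control replicate 3 the limma test called 5 of the 44, all higher in drought (TBG5, TBG2, XYL1, MAN2 and EXPA10), while 5.41% of all probe sets were called. The arrays of the 44 genes were separated upward in 12 (27.3%) and downward in 5 (11.4%), with 27 overlapping. Over all tested probe sets the shares were 20.5% upward and 14.3% downward. The median difference of the 44 was 4.5e-07, against -1.1e-07 over all tested probe sets. By size, Cel1 and exp18 exceeded every other gene in the lists of cellulases and of expansins, and 4 genes of the 44, all in the xyloglucan list, differed by over 0.1.

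**Figure D4:**
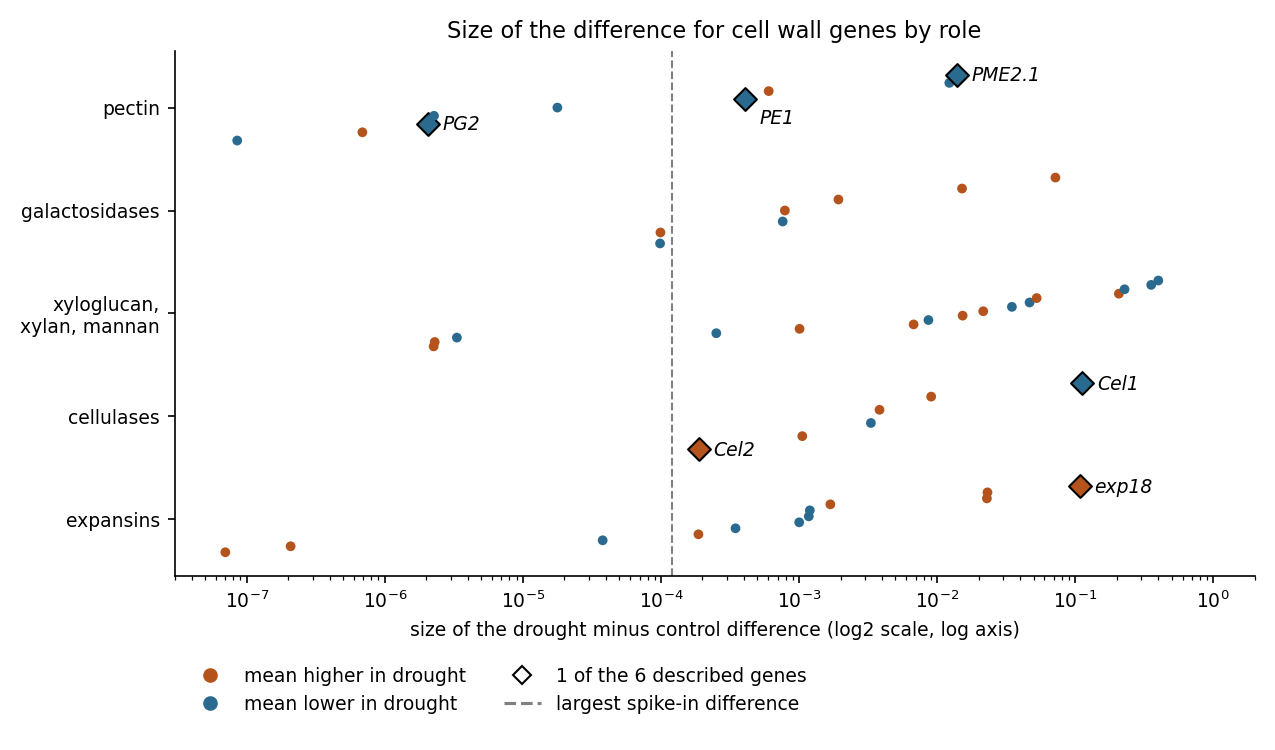
Size of the drought minus control difference (log2 scale, log axis) for the 6 genes (diamonds) and 44 other cell wall genes (dots) by role, in orange where the drought mean was higher and in blue where it was lower. The dashed line is the largest difference among 69 bacterial and phage probe sets (0.00012). Cel1 and exp18 lie furthest right in their rows.

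Of 6 other pectin genes, 2 had all drought arrays below control and 0 above, against 14.3% and 20.5% of all tested probe sets. One of the 2 was TAPG2, named after its value was seen, with a difference of -2.3e-06. Its range, 4.1e-06, lay inside those of the bacterial and phage probe sets. The third pectin methylesterase gene, PMEU1, which is expressed throughout the plant, read 10.924, 10.937 and 10.935 in drought, against 10.946, 10.946 and 10.941 in control. The arrays of PMEU1 were separated in the same direction as those of PME2.1 and PE1, with a difference of -0.012 ± 0.0044 (SE, limma adjusted p = 0.190). XOPG1 differed by 0.00060 (adjusted p = 0.437), with overlapping arrays. Of these 6 genes, 5 belonged to the dimmest 30% of probe sets, as PG2 did.

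Among the 4 other cellulase genes, 2 were separated upward, opposite to Cel1, against 20.5% of all tested probe sets. Cel3 differed by 0.0038 ± 0.00090 (SE, limma adjusted p = 0.106), and cel5 by 0.0091 ± 0.0029 (adjusted p = 0.159). Of 11 other expansin genes, 1 (9.09%) was separated, in the same direction as exp18, against 20.5% of all tested probe sets separated upward. That gene, EXPA10, read 7.103, 7.103 and 7.110 in drought, against 7.080, 7.076 and 7.093 in control, a difference of 0.023 ± 0.0054 (SE, adjusted p = 0.105). EXP5, next by p-value, differed by -0.0012 (adjusted p = 0.386) and overlapped. The ripening expansin gene EXP1 also overlapped, at -0.0012 (adjusted p = 0.962, named after its value was seen).

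Among 7 beta-galactosidase genes, TBG7 (0.072 ± 0.0096, SE, limma adjusted p = 0.0539) and TBG5 (0.015 ± 0.0030, adjusted p = 0.0836) came nearest to the threshold. XYL1, also called LEXYL1, a beta-xylosidase gene, differed by 0.015 ± 0.0019 (adjusted p = 0.0539), and XTH6, of the xyloglucan endotransglucosylases, by 0.053 ± 0.012 (adjusted p = 0.103). These 4 genes, the first by p-value in their lists, missed the threshold and had every drought array above every control array. Of the 7 beta-galactosidase genes, 3 were separated upward and 1, TBG6, downward. Of the 16 genes in the xyloglucan list, 6 were separated upward and 2 downward. Over all tested probe sets the shares were 20.5% upward and 14.3% downward. The largest difference of the 44, that of XTH3 at -0.40 (limma adjusted p = 0.403), came with overlapping arrays. XET2, separated downward and named after its value was seen, had the largest difference among the separated genes of the 44, at -0.36 ± 0.10 (SE, adjusted p = 0.134). Its values were 7.564, 7.701 and 7.629 in drought, against 8.142, 8.011 and 7.809 in control. Of the 4 xyloglucan genes that differed by over 0.1, 3 had lower means in drought.

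No marker of another fruit tissue passed the test, but 2 of their 6 differences were larger than that of PME2.1. The epidermis was represented by 3 lipid transfer protein genes alone, since the other genes of its list were not found by symbol or synonym. All 3 had lower means in drought, in the direction of PME2.1 and Cel1. Whether drought changes these genes apart from the share of epidermis was not tested. Separated arrays were found for 2 of them, against 14.3% of all tested probe sets separated downward. TSW12 was the first by p-value, with a difference of -0.020, at 7.178 ± 0.0025 in drought and 7.198 ± 0.0053 in control (SD, n = 3 each, limma adjusted p = 0.0636). Their summed linear values ran from 4481 to 4501 in drought and from 4501 to 4516 in control, with the highest drought array just below the lowest control. The 3 chlorophyll-binding protein genes, which mark green tissue, overlapped between the groups, and their sums ran from 2569 to 2619 in drought and from 2586 to 2636 in control. CAB5 had the smallest p of these (difference -0.022, adjusted p = 0.895), and its range over the arrays, 0.212, was wider than that of any of the 6 genes. No marker was at 0, seed markers were not analysed here, and the part of any tissue share in the values of the 6 genes was not tested.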

How the data were processed

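Biotin-labelled cRNA from 100 ng of total RNA was hybridized in 1 colour, per the labels' protocols. The deposited values are probe set summaries taken as log2, since they run from 5.46 to 15.8. Background correction, normalization and summary are not given in the sources used here. Of 10209 probe sets, 108 of the array maker's controls, those with the prefix AFFX, were left out and 10101 were tested. The tested ones still held 63 reporter (RPTR) probe sets, which entered the adjustment and the shares over all tested probe sets. Symbols came from the platform annotation (909 probe sets, 802 symbols), and synonyms, chromosomes and gene order from RefSeq's table (SLM_r2.1). Neither held sequences.

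Samples were grouped by their titles. Drought was compared with control by limma 3.58.1 in R 4.3.3 (lmFit, eBayes, two-sided, Benjamini-Hochberg over all tested probe sets, threshold 0.05). The fit was also run on simulated data with independent noise for each probe set. These held no array-wide shift and no array like control replicate 3, so the simulation does not bear on those features. A gene with several probe sets was read by the brightest on average. The members and the gene lists were chosen with earlier results of these data known. Named genes were the 6 members, every called gene of a role list (failing any, its first 2 by p), every called gene of a marker list (failing any, its first by p) and the 3 nearest profiles of each member. Alternatives were quantile normalization, centring, leaving out the dimmest 30%, a block for the replicate number, a trended and robust prior, leaving out each array, and averaging the probe sets of a gene. Every pair of arrays held at least 47 probe sets differing by over 0.1, so none was counted as a copy. The number of arrays limits the precision.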

Additional observations from a re-analysis of the deposited data

How the results depend on the processing

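The directions of PME2.1, PE1 and exp18 held under all 11 alternatives run, and that of Cel1 under all 10 that gave a value, while PG2 turned after quantile normalization and Cel2 in 3 of 11. For the genes whose groups did not overlap, only quantile normalization could have turned a direction. The dimness filter, the block and the prior leave a difference unchanged, and leaving out 1 array cannot turn a separated gene. Centring moved all differences downward alike, by less than the difference of exp18. After quantile normalization and after centring, PE1 stood at -0.025 and -0.0059, PG2 at 0.00018 and -0.0055, and PME2.1 at -0.020 and -0.019. PG2 and Cel1 had no value without the dimmest 30%. The count of called probe sets, 77 as deposited, was 0 after quantile normalization (2966 at an unadjusted p under 0.05 in limma), 9406 after centring and 0 with the replicate block (1752 unadjusted). It ran from 0 to 546 when 1 array was left out, with 546 without control replicate 3, 7 without control replicate 1 and at most 1 without any other. For the other cell wall genes the count of 0 became 34 after centring (7 higher, 27 lower), where 93.1% of all probe sets were called, and ran from 0 to 5 when 1 array was left out (5 without control replicate 3, all higher, and 1, cel5, without drought replicate 1). It was 0 in the remaining settings, the replicate block included. Centring subtracts the median of each array, so it shifted the differences of all probe sets by the same amount. The median difference over all tested probe sets was then -0.0055. The cause of the other changes was not tested. Deviations of same-numbered arrays had correlations of -0.092, -0.023 and -0.11, so the numbers were not taken to pair them. All probe sets of the 6 genes are single, so averaging changed none of them.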
